A study of Homo sapiens with 8 samples.

Results

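The epithelial-mesenchymal transition genes examined here were 10 listed genes of the 20052 protein-coding genes with a position in the RefSeq table, namely ZEB1, ZEB2, SNAI1, SNAI2, TWIST1, VIM and CDH2 on the mesenchymal side and CDH1, ESRP1 and GRHL2 on the epithelial side. They were chosen by name, and every peak of histone H3 lysine 27 acetylation (H3K27ac) that touched a gene or the 50 kb on either side of it was counted. H3K27ac ChIP-seq had been done on 2 derivatives of MIA PaCa-2, an established line from a human pancreatic ductal carcinoma that the labels call epithelial. Both derivatives were stable lines that carried the CRISPR activation components lentiMPHv2 and lentiSAMv2. MP2_HDAC1_OE held a guide that raises HDAC1, a histone deacetylase, and MP2_NTC held a non-targeting guide. Each line had 2 H3K27ac samples and 2 controls without antibody, but the deposited result is 1 peak list per line, made from its samples together by IDR, a filter on reproducibility. Each list therefore gives 1 value without a replicate error, nothing below was tested, and the difference between the guides cannot be told apart from the difference between these particular lines. Sequencing depth is unknown, because the lists hold no read counts. A gene without a peak is one where no interval passed the filter, not one shown to lack acetylation.

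Epithelial-mesenchymal transition is the loss of cell-cell adhesion and apical-basal polarity by epithelial cells as they take on the shape and motility of mesenchymal cells. The zinc finger factors ZEB1, ZEB2, SNAI1 and SNAI2 and the helix-loop-helix factor TWIST1 repress CDH1 and other epithelial genes, while CDH2 and VIM encode the cadherin and the intermediate filament typical of mesenchymal cells. ESRP1, a splicing regulator, and GRHL2, a transcription factor, keep the epithelial program. H3K27ac marks active promoters and enhancers. MIA PaCa-2 is known as a quasi-mesenchymal pancreatic cancer line, which sets the question of whether acetylation stood at one side of this list rather than the other.

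The promoters below are shown because the mesenchymal genes divided at them, with an H3K27ac peak at ZEB1 and VIM and none at ZEB2 and CDH2 in either list. The sequences are the 250 bases before the first annotated start, read 5′ to 3′ on the gene's strand, from RefSeq on GRCh38.p14, the hg38 assembly on which the peaks were called. Capitals mark the E-box CAGGTG or CACCTG (the same letters on the other strand), which ZEB and SNAI proteins are known to bind. Of the 10 genes, 4 matched the promoter table, and SNAI1, SNAI2, TWIST1, CDH1, ESRP1 and GRHL2 did not.
ZEB1, chr10:31318167-31318416, plus strand: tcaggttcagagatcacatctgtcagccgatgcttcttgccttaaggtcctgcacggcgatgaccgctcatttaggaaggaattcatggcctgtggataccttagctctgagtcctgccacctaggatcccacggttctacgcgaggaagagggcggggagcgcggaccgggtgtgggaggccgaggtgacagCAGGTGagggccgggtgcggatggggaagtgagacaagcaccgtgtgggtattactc
VIM, chr10:17227991-17228240, plus strand: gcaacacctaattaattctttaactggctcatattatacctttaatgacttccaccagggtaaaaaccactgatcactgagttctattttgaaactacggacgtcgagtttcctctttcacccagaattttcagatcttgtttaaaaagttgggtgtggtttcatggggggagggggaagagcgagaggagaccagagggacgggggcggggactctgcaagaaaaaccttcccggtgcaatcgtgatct
ZEB2, chr2:144520120-144520369, minus strand: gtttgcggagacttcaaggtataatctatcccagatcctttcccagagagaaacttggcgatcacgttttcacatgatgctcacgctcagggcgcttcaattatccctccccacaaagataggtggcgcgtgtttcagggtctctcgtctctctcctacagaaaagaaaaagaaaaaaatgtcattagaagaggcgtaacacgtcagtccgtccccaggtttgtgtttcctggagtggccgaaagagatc
CDH2, chr18:28177131-28177380, minus strand: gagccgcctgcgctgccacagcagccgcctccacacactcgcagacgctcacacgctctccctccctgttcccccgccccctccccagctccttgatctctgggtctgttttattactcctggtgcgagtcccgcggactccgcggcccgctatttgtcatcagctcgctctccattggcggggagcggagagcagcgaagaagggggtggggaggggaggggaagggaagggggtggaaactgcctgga

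The E-box was found 1 time in the ZEB1 sequence and 0 times in the other three, against 17.5% of 35116 promoter entries of this length that held it. The AP-1 motif TGANTCA, which reads the same on both strands, was in none of them and in 6.57% of all entries. The MP2_NTC peak at ZEB1 covered 125 bases of its printed sequence, and the MP2_HDAC1_OE peak lay past the first start and covered 0. The sequences of genes with and without a promoter peak did not separate by base composition. G and C made up 59.2% of the ZEB1 and 46.0% of the VIM sequence, and 48.0% of the ZEB2 and 66.0% of the CDH2 sequence, with a median of 58.0% over all entries. The ratio of observed to expected CpG was 0.714 for ZEB1, 0.613 for VIM, 0.834 for ZEB2 and 0.625 for CDH2, all above the median of 0.558. ZEB1 has 7 starts in the table, and the window before the third start, which lay partly under the peak described below, held 2 E-boxes.

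Peaks in the windows of these genes were concentrated in the VIM window. Both lists together gave 38 peaks in the 10 windows, 21 in MP2_HDAC1_OE and 17 in MP2_NTC. The VIM window held 25 of them, 15 and 10 respectively. Of these, only 4 in each list lay at the promoter or in the body of VIM itself. In each list 5 of the 10 genes had a peak in the window, the same ones in both (ZEB1, SNAI1, VIM, CDH1 and ESRP1), where 67.6% of coding genes had one in MP2_HDAC1_OE and 67.1% in MP2_NTC. A peak at the promoter, from 2 kb before to 1 kb after an annotated start, was present at 2 of the 10 genes in each list, ZEB1 and VIM, against 43.3% and 42.2% of coding genes. Where a gene had no entry in the promoter table, either end of it was taken as a start. All 4 counts were below the shares over coding genes, a difference that was not tested.

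When peaks of both lists that overlapped by at least 1 bp were merged, the windows held 17 regions. Of these, 8 held peaks of both lists (shared), 6 held only MP2_HDAC1_OE peaks and 3 only MP2_NTC peaks. Regions unique to MP2_HDAC1_OE and to MP2_NTC made up 35.3% and 17.6% of the total, and over all 18678 merged regions the corresponding shares were 28.6% and 20.7%. Only 5 of the 17 regions lay at the promoter or in the body of the gene itself, and all of those belonged to ZEB1 or VIM. Another 6 lay at the promoter window of a neighbouring coding gene and 6 lay between coding genes.

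**Figure D1:**
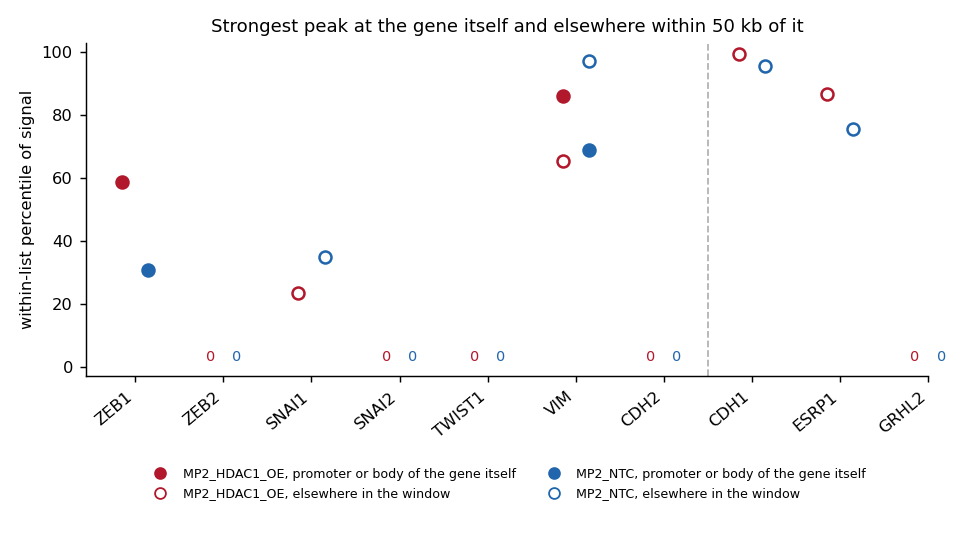
Within-list percentile of the signal (vertical axis, percent of that line's peaks with a lower signal) of the strongest H3K27ac peak at the promoter or in the body of each of the 10 genes (filled) and of the strongest elsewhere in its window (open), in MP2_HDAC1_OE (red) and MP2_NTC (blue), with 0 for a window without a peak. ZEB1 and VIM have filled points (VIM at 86.2 and 69.1), whereas the highest MP2_NTC point of VIM, at 97.3, and all points of CDH1 and ESRP1 are open.

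Signals were compared as ranks within each list, since the scale of the signal between the lists is not known. The percentile of a peak is the percent of peaks of the same list with a lower signal.

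ZEB1 (chr10:31318417-31529804), a repressor of CDH1 and a central driver of the transition, had its peaks at the start of the gene and nowhere else in a window of 311.4 kb. MP2_NTC had 1 peak, at chr10:31318292-31319111, with a signal of 39.1 at percentile 30.8. MP2_HDAC1_OE had the interval chr10:31318517-31319058 listed with 2 summits, 406 and 612 bp into the gene, with signals of 51.2 (percentile 58.9) and 19.4 (percentile 8.91). The region was thus shared, with the stronger peak of MP2_HDAC1_OE 28.1 percentile points above the peak of MP2_NTC. Of the 9477 shared regions, 21.7% differed by more in either direction. Both were low in the reproducibility score that IDR gives, 623 and 612 on a scale where the lists ran from 540 to 1000, and 16.7% and 12.8% of the respective lists scored lower. The interval also overlapped ZEB1-AS1, a long non-coding RNA gene beside ZEB1, and which of these starts carried the mark cannot be told apart.

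ZEB2 (chr2:144384081-144520119), the paralog of ZEB1, had no peak in its window in either list. The nearest peaks lay just outside the limit, 50.8 kb away in MP2_NTC (signal 56.1) and 51.8 kb away in MP2_HDAC1_OE (signal 42.0), so the absence depended on the limit of 50 kb. Both belonged to 1 shared region at the promoter window of another coding gene.

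SNAI1 (chr20:49982980-49988886), which encodes Snail, had no peak at its promoter or in its body, and the peaks of its window differed between the lists. MP2_HDAC1_OE had a peak at chr20:49978969-49979788, 3192 bp from the gene and outside any coding gene, with a signal of 32.0 at percentile 23.6. MP2_NTC had a peak at chr20:49936308-49937127, 45853 bp from the gene in the promoter window of RNF114, with a signal of 41.2 at percentile 34.8. Each was absent from the other list. Their scores of 552 and 578 were near the lowest score retained, with only 2.58% and 6.98% of the lists below them, so whether either marks a difference between the lines cannot be read from these lists.

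SNAI2, TWIST1 and CDH2 had no peak in their windows and were far from any. SNAI2 (chr8:48917598-48921429), which encodes Slug, was 402.5 kb from the nearest peak in both lists. TWIST1 (chr7:19113047-19117636) was 541.8 kb from a peak in MP2_HDAC1_OE and 590.7 kb from one in MP2_NTC, on opposite sides of the gene. CDH2 (chr18:27932879-28177130), which encodes N-cadherin, was 987.3 and 979.4 kb away, and 96.9% and 96.5% of coding genes had a nearer peak. The median coding gene was 4372 bp from a peak in MP2_HDAC1_OE and 5668 bp in MP2_NTC. For these 3 genes the smallest share of coding genes with a nearer peak was 91.0%, that of SNAI2 in MP2_NTC.

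**Figure D2:**
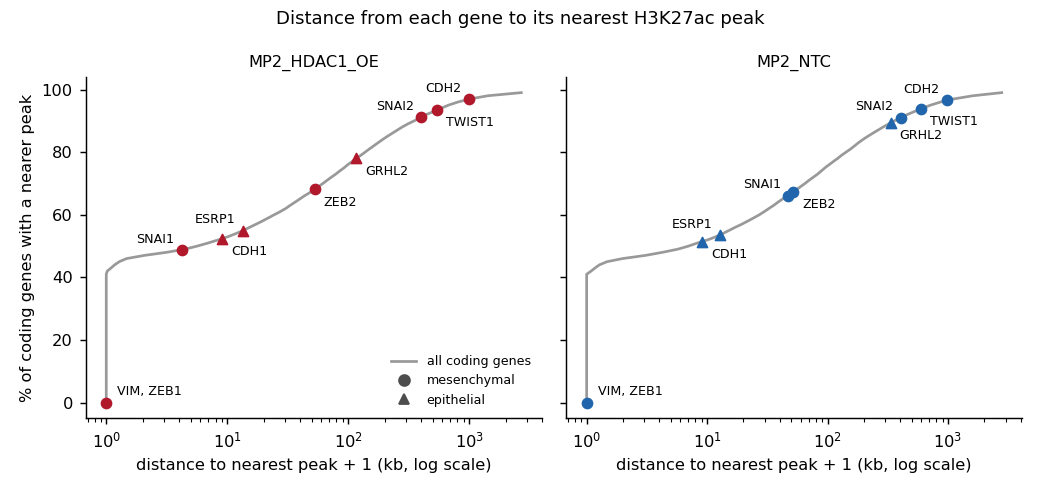
Distance from each gene to its nearest H3K27ac peak (horizontal axis, kb plus 1, log scale) against the percent of 20052 coding genes with a nearer peak (vertical axis), for MP2_HDAC1_OE (left) and MP2_NTC (right). The grey line gives all coding genes, circles mark mesenchymal and triangles epithelial genes; CDH2, TWIST1 and SNAI2 lie at the far end in both panels, and GRHL2 joins them in MP2_NTC.

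VIM (chr10:17228241-17237593), which encodes vimentin, stood apart from the other mesenchymal genes. Peaks covered 7.56% of its window in MP2_HDAC1_OE and 5.97% in MP2_NTC, above the covered share of 98.6% and 97.2% of coding genes, and the medians over coding genes were 0.721% and 0.715%. The window held 12 merged regions, of which 5 were shared, 5 were unique to MP2_HDAC1_OE and 2 were unique to MP2_NTC. The window also took in the promoter of TRDMT1 and stretches between coding genes, so these values do not describe VIM alone.

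At the VIM start, where the printed sequence ends, the region was shared. MP2_HDAC1_OE had the narrow interval chr10:17228214-17228516 with a signal of 75.9 at percentile 86.2. MP2_NTC had the wider interval chr10:17227907-17228726 with a signal of 62.3 at percentile 69.1. The difference of 17.1 percentile points was smaller than that of 40.4% of shared regions, close to the middle of the spread between the lists. The peak of MP2_NTC covered all 250 bases of the printed VIM sequence and that of MP2_HDAC1_OE only the last 27. A further peak of MP2_NTC at chr10:17226767-17227586, within the promoter window, was unique to that list at percentile 23.9.

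Inside VIM the lists differed at 1 place and overlapped at another. A region at chr10:17229872-17230488, with its main summit 1808 bp into the gene, was unique to MP2_HDAC1_OE with a signal of 70.0 at percentile 81.8, above 94.2% of the regions unique to that line. A further 1199 bp on, chr10:17231688-17232823 was shared, with percentiles of 33.0 in MP2_HDAC1_OE and 38.4 in MP2_NTC. Beyond the end of the gene, 2 more regions were unique to MP2_HDAC1_OE, 659 bp (percentile 25.4) and 19661 bp (percentile 51.4) away, and MP2_NTC had none on that side. The scores of those 2 peaks, 573 and 666, were in the lower part of the list, with 6.98% and 24.4% of it below.

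On the other side of VIM lay VIM-AS1, an antisense long non-coding RNA gene that also overlapped the peaks at the VIM start, and beyond it TRDMT1, which encodes an RNA methyltransferase. In VIM-AS1, MP2_NTC alone had a region at chr10:17214786-17215605 with a signal of 68.9 at percentile 76.2 and a score of 1000. MP2_HDAC1_OE alone had a region at chr10:17216417-17217435 with a signal of 49.1 at percentile 55.0. These regions were unique but were separated by only 811 bp, so both lists had a peak in this stretch, at different positions.

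The widest difference in the window was at TRDMT1. In the shared region chr10:17201381-17202711 the strongest peak of MP2_NTC had a signal of 119.3 at percentile 97.3 and the peak of MP2_HDAC1_OE a signal of 37.5 at percentile 31.7. Only 1.22% of shared regions differed by more in either direction. The peak of MP2_HDAC1_OE had a score of 549, with 1.93% of the list below, while a region 362 bp away was unique to that line at percentile 65.3. The 2 remaining shared regions on this side differed by 1.68 and 13.2 percentile points, both higher in MP2_HDAC1_OE and close to the median absolute difference of 13.1 over all shared regions or below it.

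**Figure D3:**
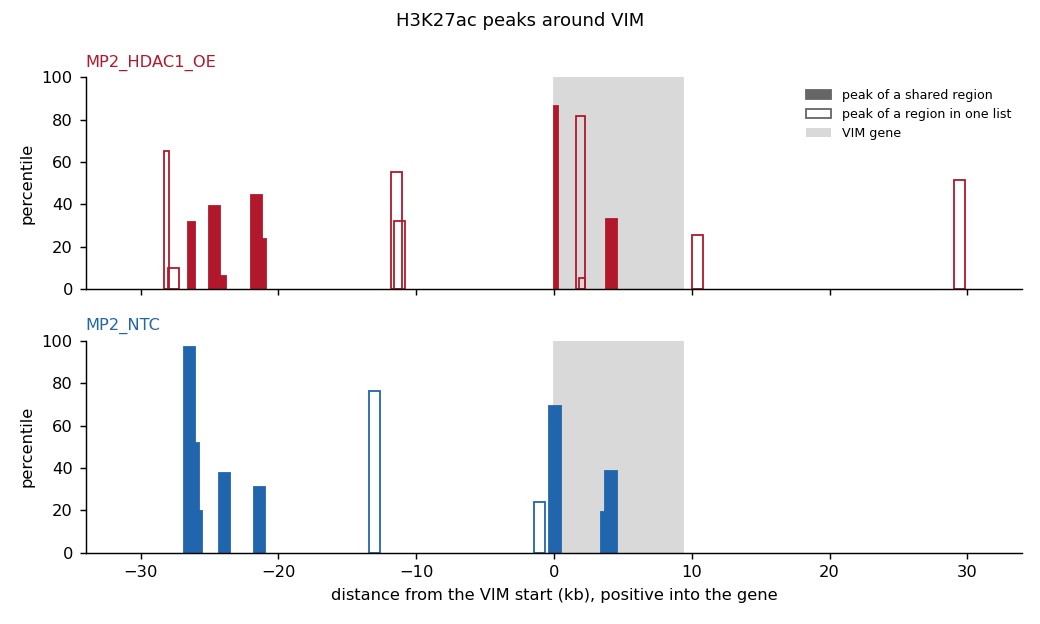
H3K27ac peaks around VIM by distance from the VIM start (horizontal axis, kb, positive into the gene) with their within-list percentile as height (vertical axis), for MP2_HDAC1_OE (top) and MP2_NTC (bottom). Filled bars belong to shared and open bars to unique regions, and the grey band is the gene; the tallest bar of MP2_HDAC1_OE is at the start at percentile 86.2, and that of MP2_NTC is at TRDMT1 at percentile 97.3.

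The epithelial genes had no peak of their own. CDH1 (chr16:68737292-68835537), which encodes E-cadherin, had none in its 98.2 kb or at either end of it. The only peaks of its window lay 8.01 kb past the gene at the promoter of TANGO6, in a shared region at percentile 99.5 in MP2_HDAC1_OE (signal 132.1) and 95.6 in MP2_NTC (signal 108.0). The window of ESRP1 (chr8:94641174-94707466) was alike, with a single shared region 11.7 kb past the gene at the promoter of DPY19L4, at percentile 86.8 (signal 76.8) and 75.4 (signal 68.1). GRHL2 (chr8:101492439-101681200) had no peak in its window, and the nearest was 115.5 kb away in MP2_HDAC1_OE and 332.5 kb away in MP2_NTC, where 89.3% of coding genes had a nearer one. The high ranks in the CDH1 and ESRP1 windows were therefore those of neighbouring promoters.

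Set side by side, the mesenchymal genes had 6 peaks at their own promoters or bodies in MP2_HDAC1_OE and 5 in MP2_NTC, and the epithelial genes had 0 in both. This contrast rested on 2 of the 7 mesenchymal genes. The other 5 had 0 such peaks, as had all 3 epithelial genes. By distance the order was the reverse, with a median of 51.8 kb (MP2_HDAC1_OE) and 50.8 kb (MP2_NTC) from a mesenchymal gene to its nearest peak and 12.5 and 11.7 kb from an epithelial gene. All unique regions of the 10 windows were in the mesenchymal ones, 6 and 3, and the 2 epithelial regions were shared. The VIM window alone held 5 and 2 of the unique regions. The SNAI1 window held 1 and 1, with scores near the lowest retained. Over all merged regions 28.6% and 20.7% were unique to MP2_HDAC1_OE and MP2_NTC. With only 2 epithelial regions, both at promoters of neighbouring genes, these counts cannot show a difference between the groups. Of the 8 shared regions, 6 ranked higher in MP2_HDAC1_OE, where 54.7% of all shared regions did so, with a median difference of 7.63 percentile points against 1.51 over all. The VIM window held 5 of the 8. Among the 6, only those at the ZEB1 promoter and the VIM start lay at a listed gene.

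Further genes of both programs were read at their promoters from lists of 32 epithelial and 31 mesenchymal genes that hold none of the 10. The shares of acetylated promoters in both programs were close to each other. Among the epithelial genes 10 had a promoter peak in MP2_HDAC1_OE and 9 in MP2_NTC, and among the mesenchymal genes 10 and 9, that is 31.2% and 28.1% against 32.3% and 29.0%. All 4 shares were below those of coding genes given above. An annotated start was available for 19 of the 32 epithelial and 23 of the 31 mesenchymal genes. The others were read at both ends, so the promoter windows differed between the gene lists. Of 15 genes of other cell types, such as the leukocyte gene PTPRC and the insulin gene INS, 1 had a peak in each list, in the window of the endothelial cadherin CDH5, and it lay at least 1637 bp outside that gene.

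The epithelial genes were divided, and 21 of 32 had no promoter peak in either list. The same held for 20 of 31 mesenchymal and 10305 of 20052 coding genes. The genes without a peak named next were picked after these values were seen. EPCAM, an epithelial adhesion molecule, and the claudins CLDN1, CLDN3 and CLDN7 had no promoter peak in either list, nor did RAB25, OVOL1, OVOL2, GRHL1 or GRHL3. Of the keratin genes in the list, KRT7 had no promoter peak in either list and the other 3 had at least 1. KRT18 had a shared region at percentile 61.1 in MP2_HDAC1_OE and 76.2 in MP2_NTC. KRT8, its partner, had a promoter peak in MP2_HDAC1_OE alone (percentile 50.5). The shared KRT18 region also overlapped an end of KRT8 that lay outside its promoter windows, so both lists had peaks touching KRT8. KRT19 had peaks at opposite ends of the gene, at percentile 42.8 in MP2_HDAC1_OE and 6.86 in MP2_NTC.

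The highest ranks among the epithelial genes in MP2_HDAC1_OE were those of CLDN4 (percentile 89.8), which encodes a tight junction claudin, ESRP2 (88.0), the paralog of ESRP1, and ELF3 (85.2), an epithelial ETS factor. In MP2_NTC they were those of MUC1 (87.4), which encodes a membrane mucin, TJP1 (84.5), which encodes the tight junction protein ZO-1, and ESRP2 (83.9). ESRP2 was thus high in both lists although its paralog had no peak of its own. ESRP2 was without an annotated start and was read at both ends, and its peaks lay at least 947 bp outside the gene. CLDN4 and ELF3 ranked much lower in MP2_NTC, at 20.5 and 22.6. The CLDN4 peaks with these ranks lay in a shared region but did not overlap each other. The MP2_NTC peak that overlapped the CLDN4 peak of MP2_HDAC1_OE was at percentile 12.3. OCLN (84.9 in MP2_HDAC1_OE and 74.7 in MP2_NTC) and MARVELD2 (79.8 and 49.1) also had promoter peaks in both lists. A promoter peak was found in MP2_HDAC1_OE alone at KRT8 and LSR (percentile 42.7) and in MP2_NTC alone at TJP1.

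Among the mesenchymal genes the highest ranks in MP2_HDAC1_OE were those of TCF3 (97.2), which encodes the helix-loop-helix factor E2A, QKI (88.3), an RNA-binding splicing regulator, and S100A4 (87.2), which encodes a calcium-binding protein. In MP2_NTC they were those of ITGB1 (98.2), which encodes an integrin chain, TCF3 (94.2) and S100A4 (77.4). All of these had promoter peaks in both lists, but the S100A4 ranks of the lists came from different shared regions. A promoter peak was found in MP2_HDAC1_OE alone at AXL (26.1), a receptor tyrosine kinase, and MSN (2.29), which encodes moesin, and in MP2_NTC alone at CAV1 (15.9), which encodes caveolin, all at low ranks. A region unique to MP2_HDAC1_OE stood beside a shared one at CLDN4, KRT18, TCF3 and ITGB1, and a region unique to MP2_NTC did so at S100A4. CALD1 (84.2 in MP2_HDAC1_OE and 62.2 in MP2_NTC), CD44 (66.9 and 70.9), EMP3 (58.4 and 74.7) and LOXL2 (29.3 and 26.9) also had promoter peaks in both. The 20 mesenchymal genes without a promoter peak in either list included the fibronectin gene FN1, SPARC and TWIST2. In the TWIST2 window MP2_NTC had 3 peaks, the nearest touching the gene, and MP2_HDAC1_OE had none.

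**Figure D4:**
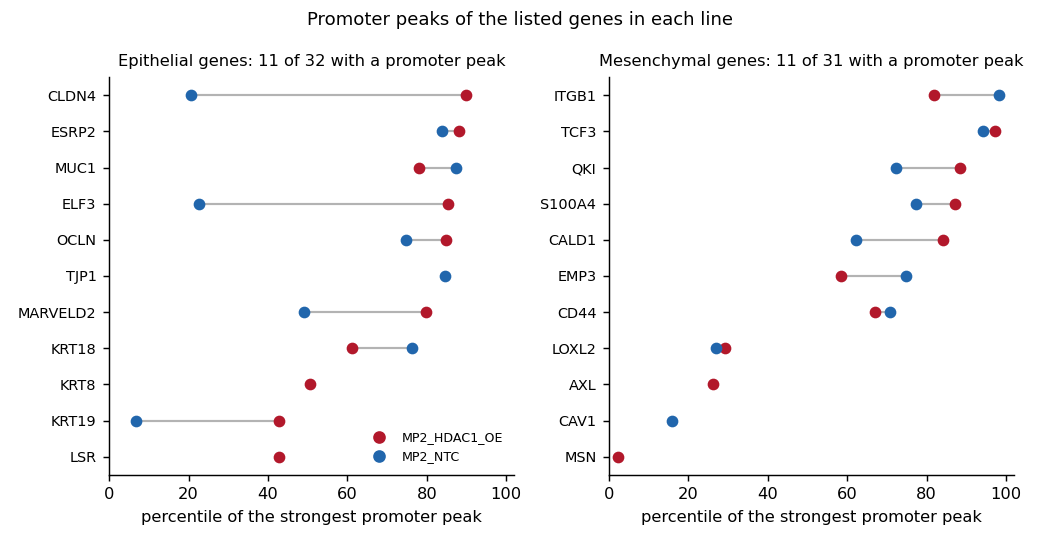
Within-list percentile of the strongest promoter peak (horizontal axis) of the listed epithelial (left) and mesenchymal (right) genes with a peak in at least 1 list, in MP2_HDAC1_OE (red) and MP2_NTC (blue). Grey lines join the values of a gene with peaks in both lists, which for KRT19 and S100A4 lie in different regions. The widest gaps are those of CLDN4, whose joined peaks do not overlap, and ELF3, both higher in MP2_HDAC1_OE.

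Of the genes with a promoter peak in both lists, 6 of 8 epithelial and 5 of 8 mesenchymal genes ranked higher in MP2_HDAC1_OE, and over all coding genes 54.4% of 7401 did. The epithelial 6 include KRT19, whose peaks lay at opposite ends of the gene. KRT19 counted as having a promoter peak in both only because either end was taken as a start. The gene lists were written with earlier results of these data known, so their counts are descriptions. At HDAC1 itself, the gene targeted by the guide, the shared region at the promoter was at percentile 93.9 in MP2_HDAC1_OE and 40.4 in MP2_NTC, and another promoter region, unique to MP2_NTC, was at percentile 45.2.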

How the data were processed

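H3K27ac ChIP-seq (antibody ab4729) was done in 2 samples per line with 2 controls without antibody. The submitters' processing notes name BWA 0.7.12, Picard 1.88, SAMtools and hg38, and the peak caller is not given in the sources used here. The authors deposited 1 IDR peak list per line, pooled over its samples, in which each peak has a signal value and a score from IDR. These deposited signal values have no stated scale, so signals were ranked within each list. Another score column and the control samples were not analysed here.

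Peaks overlapping by 1 bp were merged into regions with Python 3.11.15 and pandas 2.3.3, and a region was unique when all its peaks came from 1 list. Gene positions and promoter sequences came from RefSeq (GRCh38.p14), and 15841 of 20052 coding genes had an annotated start. Overlap and distance steps were tested on simulated intervals. With 1 list per line there was no test, and depth is unknown. All 10 genes are named, with HDAC1, the neighbours whose promoters held a peak in a window, and from each gene list the 3 highest ranks per peak list and genes with a promoter region in 1 list only. Other genes of these gene lists, with or without a peak, were named after their values were seen. A gene of the mesenchymal list is not reported here and was left out of its counts. The genes and lists were chosen with earlier results of these data known. Alternatives changed the window, the promoter, the overlap, the number of peaks and the ranking.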

Additional observations from a re-analysis of the deposited data

How the results depend on the processing

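No paired analysis was possible because the intervals of a line were deposited for its 2 samples jointly, so that leaving out a sample could not be tried either. Of 50 alternative values, 17 moved beyond the limits set (1.5 times for a count, the 95% interval for a percentile) and 0 reversed. With 10 kb on either side, MP2_NTC had peaks in 3 windows, and the regions fell to 3 unique to MP2_HDAC1_OE, 1 unique to MP2_NTC and 4 shared. With 100 kb, 6 windows had a peak in each list, ZEB2 included, and 12 regions were shared, with 6 in MP2_HDAC1_OE alone and 5 in MP2_NTC alone. Asking for an overlap of 50% of both peaks, 12 peaks of MP2_HDAC1_OE and 8 of MP2_NTC had no partner, and 9 peaks of each list had one. Ranked over non-overlapping intervals instead of peaks, all strongest peaks fell. In MP2_HDAC1_OE the percentile was 46.3 for ZEB1, 11.2 for SNAI1, 80.0 for VIM (at its start), 99.2 for CDH1 and 80.9 for ESRP1. In MP2_NTC it was 17.3 for ZEB1, 21.3 for SNAI1, 95.9 for the VIM window (the peak at TRDMT1, not at VIM), 93.3 for CDH1 and 66.0 for ESRP1. The direction of all 8 differences at shared regions held with log2 ratios of the signals centred on all shared regions. Those ratios use the same highest signals, so this is not a separate check. At chr10:17203182-17204756 in the VIM window the direction rested on the centring, with signals of 41.2 in MP2_HDAC1_OE and 42.6 in MP2_NTC and a centred ratio of 0.00985. Promoter peaks at either gene end for all genes, an alternative chosen after seeing the data, again gave 2 genes per list. Unknown depth limits every statement that a list lacks a peak.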
